A study of Bos taurus with 6 samples.

Results

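The expression of 9 early neuron genes was examined in bovine embryonic stem cells (bESCs) of the line F7 grown on living or on killed feeder cells. The genes are TUBB3, DCX, MAP2, MAPT, STMN2, ELAVL3, ELAVL4, NCAM1 and GAP43. They were chosen by name for their known roles in young neurons, with earlier results of these data known. They were matched by Entrez gene ID in the count table and by symbol in the table of TPM values. All 9 were found among the 19163 genes of the count table. The F7 line was derived from Holstein Friesian embryos made by in vitro fertilisation. In the group called MC-F7 (labelled 1M), the cells grew on mouse embryonic fibroblasts (MEFs) treated with mitomycin C, which stops division and leaves the fibroblasts alive. In the group called MT-F7, they grew on MEFs fixed in methanol, which kills the fibroblasts and fixes their proteins in place. Both groups were kept in the same defined stem cell medium with a WNT inhibitor. Both were taken at passage 15, with 3 libraries in each group. This medium was renewed daily in MC-F7 and only every other day in MT-F7. Effects of the feeder and of the feeding interval cannot be told apart here. Before RNA extraction the dissociated cells of both groups stood on a gelatin-coated dish and only the floating cells were taken. All 6 libraries are of 1 cell line, so nothing here covers variation between lines. No source used here says if the libraries within a group are separate cultures, and the p values measure only the spread between these libraries, which may be technical.

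A young neuron is recognised by its cytoskeleton. TUBB3 is a beta tubulin, a building block of microtubules, that is abundant in neurons. DCX, MAP2 and MAPT (tau) bind and stabilise microtubules, DCX in migrating neurons, MAP2 mainly in dendrites and MAPT mainly in axons. STMN2 is a stathmin of the growth cone that binds free tubulin and favours microtubule turnover. ELAVL3 and ELAVL4 (HuC and HuD) are neuronal proteins that bind and stabilise messenger RNA. NCAM1 is a cell adhesion molecule and GAP43 a membrane protein of growing axons. Several of these genes are not restricted to neurons. Tubulins, stathmins and NCAM1 in particular are also made by neural progenitors and by other dividing or migrating cells.

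Read counts on genes were between 21958386 and 24933430 per library, and 3 counts, taken as the smallest detectable amount, corresponded to 0.116 to 0.14 counts per 1000000 counts (CPM). This limit covers counting error only. The 13001 genes that passed a filter on low counts were compared by edgeR's quasi-likelihood test with Benjamini-Hochberg adjustment over all of them, and a gene was called at an adjusted p under 0.05. Mean levels are in CPM with the SD of the 3 libraries, and a positive log2 fold change, given with its standard error (SE), means a higher level in MT-F7. Genes of the mitochondrial genome took 16.3% to 28.3% of the counts and were highest in replicate 3 of both groups. The median log2 fold change of all tested genes was -0.00. In RNA from bulk cells, a change in the number of cells that express a gene and a change in RNA per cell cannot be told apart. The library kit does not mark strand, so reads of a gene and of any transcript antisense to it cannot be told apart either. The paper reports that a smaller part of the MC-F7 reads than of the MT-F7 reads aligned to the bovine genome. It proposes that fixed feeders left fewer feeder cells in the cultures. How far mouse reads were counted on bovine genes was not tested.

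Of the 9 early neuron genes, 4 rose in MT-F7, 1 fell, 3 did not pass the test and 1, DCX, had too few counts to be tested. MAP2, STMN2, NCAM1 and GAP43 rose by 1.83-fold to 7.64-fold and ELAVL3 was 5.10-fold lower. TUBB3, MAPT and ELAVL4 did not pass. Of all tested genes 23.2% were called, 11.9% higher and 11.3% lower in MT-F7. GAP43 and ELAVL4 passed the filter on low counts only through the MT-F7 libraries, where they were higher. The 9 genes were also chosen with earlier results of these data known. The counts and the median of the tested genes are therefore given as a description. In 6 of the 9 genes the lowest MT-F7 library exceeded the highest MC-F7 library and in 1 the order was the opposite, while 40.0% of all tested genes did not overlap, 19.9% with MT-F7 above and 20.1% with MT-F7 below. The median log2 fold change of the 8 tested genes was 1.08, with a range from -2.35 to 2.93. Added together, the 9 genes took 410 to 533 CPM in MC-F7 and 571 to 800 CPM in MT-F7. TUBB3 and STMN2 alone made up 91.4% to 96.8% of these sums.

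**Figure D1:**
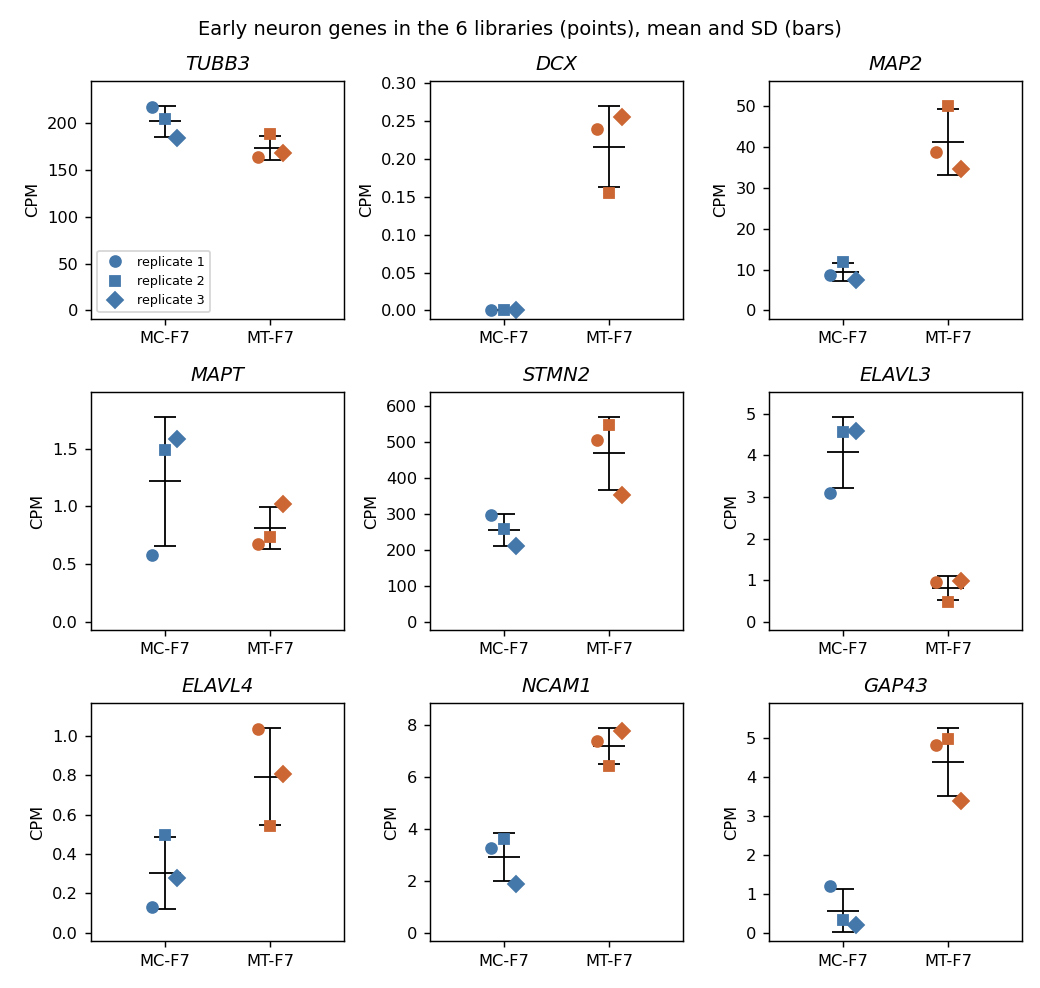
Level of each of the 9 early neuron genes in the 6 libraries, in CPM (vertical axis, different scale in each panel). Points are libraries, with the replicate number shown by the shape, and the bars give the mean and SD of 3 libraries. The groups overlap for TUBB3 and MAPT, the MT-F7 points lie below the MC-F7 points for ELAVL3, and they lie above them in the other panels.

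TUBB3 (Entrez 768070), the neuronal beta tubulin, was among the most abundant of the 9 genes in both groups. Its level was 217, 205 and 184 CPM in the MC-F7 libraries and 164, 189 and 169 CPM in the MT-F7 libraries. The highest MT-F7 library lay above the lowest MC-F7 library. The difference, 202 ± 16.7 against 174 ± 13.2 CPM, was a log2 fold change of -0.22 (SE 0.146, 95% interval -0.54 to 0.10) and did not pass the test (edgeR adjusted p = 0.31).

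MAP2 (Entrez 281294), a protein that bundles microtubules in dendrites, rose in MT-F7. The counts were 195, 287 and 162 in MC-F7 against 972, 1300 and 815 in MT-F7, which is 8.63, 11.9 and 7.58 CPM against 38.7, 50.2 and 34.6 CPM. The lowest MT-F7 library was thus well above the highest MC-F7 library, and in both groups replicate 2 was highest and replicate 3 lowest. The mean rose from 9.37 ± 2.25 to 41.2 ± 8.09 CPM, a log2 fold change of 2.13 (SE 0.211), or 4.39-fold (edgeR adjusted p = 1.6e-05). Of the 13001 tested genes, 358 changed at least as much as MAP2 in either direction.

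MAPT (Entrez 281296), the gene of tau, had few counts and did not pass the test. Its 13, 36 and 34 counts in the MC-F7 libraries overlapped the 17, 19 and 24 counts in MT-F7. The means were 1.22 ± 0.56 and 0.81 ± 0.183 CPM, with a log2 fold change of -0.59 (SE 0.457, 95% interval -1.58 to 0.40, edgeR adjusted p = 0.39).

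DCX (Entrez 787968), the microtubule protein of migrating neurons, was detected only in MT-F7. No count fell on it in the 3 MC-F7 libraries, and 6, 4 and 6 counts fell on it in the MT-F7 libraries. With 3 counts per library as the floor for MC-F7, the MT-F7 level of 0.216 ± 0.0539 CPM was at least 1.63-fold higher. The filter on low counts removed DCX from the test. When all genes with at least 1 count were tested it passed (edgeR adjusted p = 0.041), and so it did in limma on the deposited TPM values (adjusted p = 0.047 on log2(TPM + 1)). A few reads per library carry this result. The gene SERTM2 overlaps DCX in the RefSeq annotation and had 2 counts in 1 MT-F7 library and 0 in the other libraries.

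STMN2 (Entrez 534991), the growth cone stathmin, was abundant in both groups and rose further in MT-F7. Its level was 299, 259 and 209.9 CPM in MC-F7 and 505, 548 and 353 CPM in MT-F7. The groups did not overlap, although replicate 3 was the lowest library in each. The mean went from 256 ± 44.4 to 469 ± 102 CPM, a log2 fold change of 0.87 (SE 0.196), or 1.83-fold (edgeR adjusted p = 0.0062). Replicate 3 also had the highest mitochondrial share in both groups. Without both replicate 3 libraries the log2 fold change of STMN2 was 0.94 (edgeR adjusted p = 6.3e-05).

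Of the neuronal RNA-binding genes, ELAVL3 fell and ELAVL4 did not pass the test. ELAVL3 (Entrez 520376) gave 70, 110 and 98 counts in the MC-F7 libraries against 24, 12 and 23 counts in MT-F7. All MT-F7 libraries were below all MC-F7 libraries. From 4.08 ± 0.852 CPM the mean fell to 0.799 ± 0.29 CPM, a log2 fold change of -2.35 (SE 0.354), or 5.10-fold lower (edgeR adjusted p = 4.4e-04). ELAVL4 (Entrez 535408) gave 3, 12 and 6 counts in the MC-F7 libraries against 26, 14 and 19 in MT-F7. These groups did not overlap either, but the nearest libraries were only 0.497 and 0.541 CPM. Its log2 fold change was 1.36 (SE 0.561, 95% interval 0.14 to 2.57) and the adjusted p of 0.10 did not pass edgeR's test.

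Both genes of the growing axon's membrane rose. NCAM1 (Entrez 281941), an adhesion molecule, gave 74, 87 and 40 counts in the MC-F7 libraries against 185, 166 and 183 in MT-F7, with the highest MC-F7 library at 3.61 CPM and the lowest MT-F7 library at 6.41 CPM. It rose 2.45-fold, from 2.92 ± 0.921 to 7.18 ± 0.698 CPM (edgeR adjusted p = 0.0037). The paper lists NCAM1, from the same RNA-seq data, among markers of a pluripotent state called primed that were higher in MT-F7. GAP43 (Entrez 281777), which regulates actin at the growth cone, had the largest absolute log2 fold change of the 8 tested genes. Its counts were 27, 8 and 4 in the MC-F7 libraries against 121, 129 and 80 in MT-F7. Replicate 1 of MC-F7 stood above the other MC-F7 libraries, and the lowest MT-F7 library was still well above it. The mean rose from 0.571 ± 0.545 to 4.40 ± 0.873 CPM, a log2 fold change of 2.93 (SE 0.49), or 7.64-fold (edgeR adjusted p = 9.3e-04). GAP43 passed the filter on low counts only through the MT-F7 libraries, where it was higher, so its test is given as a description. Without replicate 1 of MC-F7 the log2 fold change was 4.04, and over the 6 fits that each left out 1 library it was between 2.53 and 4.04.

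To compare the genes with each other, the deposited TPM values, which divide the counts by gene length, were rescaled to 1000000 per library. On this scale STMN2 and TUBB3 stood far above the rest. In MC-F7, STMN2 (149.6 ± 28.2 TPM) and TUBB3 (144.1 ± 15.1 TPM) overlapped. ELAVL3 came next at 3.60 ± 0.785 TPM, followed by MAP2 at 1.14 ± 0.321 TPM. NCAM1 (0.698), MAPT (0.434) and GAP43 (0.393) each overlapped their neighbours in the order, ELAVL4 (0.101) was below them with a range that overlapped that of GAP43, and DCX was at 0. In MT-F7, STMN2 (291.5 ± 75.3 TPM) no longer overlapped TUBB3 (130.9 ± 14.6 TPM). The next places belonged to MAP2 (5.31 ± 1.27 TPM), GAP43 (3.23 ± 0.766 TPM) and NCAM1 (1.80 ± 0.108 TPM), none of which overlapped a neighbour. ELAVL3 (0.738 ± 0.251 TPM) had moved from the third to the sixth place, above MAPT (0.303) and ELAVL4 (0.276), which overlapped, and DCX (0.146). Among 21261 genes ranked by mean level, STMN2 went from rank 624 to 313, MAP2 from 10960 to 7815 and GAP43 from 12746 to 8972. ELAVL3 went down from rank 8565 to 11786. TUBB3 stayed near the top with ranks of 646 and 730.

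Ratios of counts within a library do not depend on library size. Pairs of genes with related roles were chosen for this after their values had been seen. The ratio of STMN2 to TUBB3 was 1.37, 1.26 and 1.14 in the MC-F7 libraries against 3.09, 2.91 and 2.09 in MT-F7. The ratio of MAP2 to TUBB3 was 0.0397, 0.058 and 0.0411 in MC-F7 against 0.237, 0.266 and 0.205 in MT-F7. The ratio of ELAVL4 to ELAVL3 went from 0.0429, 0.109 and 0.0612 to 1.08, 1.17 and 0.826. In MC-F7 libraries ELAVL4 thus had at most 0.109 counts for each count of ELAVL3, and in MT-F7 libraries it had between 0.826 and 1.17. This ratio rests on 3, 12 and 6 counts of ELAVL4 in the MC-F7 libraries, the first of them at the smallest detectable amount. ELAVL4 passed the filter on low counts only through MT-F7 and was not called. The ratio of MAP2 to MAPT was 15.0, 7.97 and 4.76 in the MC-F7 libraries against 57.2, 68.4 and 34.0 in MT-F7. Compared as geometric means, the ratios of STMN2 to TUBB3, MAP2 to TUBB3, ELAVL4 to ELAVL3, MAP2 to MAPT and GAP43 to STMN2 were 2.12, 5.15, 15.4, 6.15 and 5.67 times higher in MT-F7. None of the 5 ratios overlapped between the groups, and how often ratios of other gene pairs do not overlap was not tested. A two-sided exact permutation test gave p = 0.1 for each, the smallest value that 3 libraries against 3 can give. Since the pairs were chosen after their values had been seen, these p values are a description and add no support to the changes of the single genes.

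**Figure D2:**
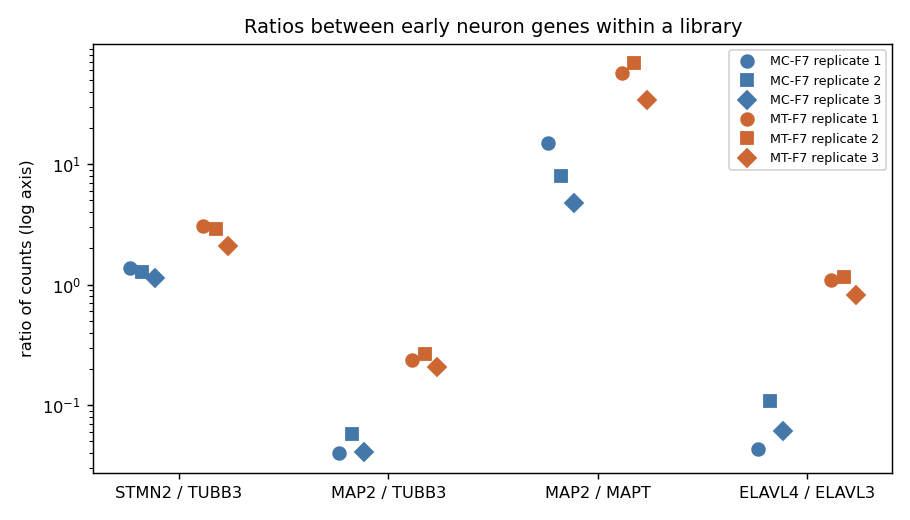
Ratios of counts between 4 pairs of early neuron genes in each library (logarithmic vertical axis). Points are libraries, with the group shown by the colour and the replicate number by the shape. The groups do not overlap for any pair, and the fold between their geometric means is largest, at 15.4, for ELAVL4 over ELAVL3. ELAVL4 had only 3, 12 and 6 counts in MC-F7, passed the filter on low counts only through MT-F7 and was not called.

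Close relatives of the 9 genes were examined next. Of 17 relatives, 15 were tested, of which 5 rose, 3 fell and 7 did not pass, with a median log2 fold change of 0.08. Among the beta tubulins, which form microtubules together with TUBB3, the most abundant, TUBB, had a log2 fold change of 0.00 (edgeR adjusted p = 0.99, and below 0 in 3 of the 6 fits that left out a library). TUBB2B, a beta tubulin of young neurons and neural progenitors, rose from 153 ± 46.6 to 266 ± 45.2 CPM (log2 fold change 0.80, edgeR adjusted p = 0.018). Its call was lost when replicate 2 of MC-F7 (0.82) or replicate 2 of MT-F7 (0.76) was left out, and in limma on the TPM values (adjusted p = 0.0569 to 0.0654). TUBB6 fell by 0.50 on the log2 scale (edgeR adjusted p = 0.028), a call lost without replicate 1 of MC-F7 (-0.44), replicate 2 of MC-F7 (-0.53) or replicate 1 of MT-F7 (-0.43), and in limma on the TPM values (adjusted p = 0.0769 to 0.123). TUBB1, TUBB2A, TUBB4A and TUBB4B did not pass, with log2 fold changes of 0.95, 0.32, -0.20 and -0.21. TUBB1 passed in edgeR with at least 10 counts in every library (adjusted p = 0.0434) and in limma on the TPM values (adjusted p = 0.0237 to 0.0341). The value of TUBB2A turned negative without replicate 3 of MC-F7 (-0.06). Beta tubulin genes are close copies of each other, and how reads that match several of them were counted is not given in the sources used here, so the division of reads between them is uncertain. By length-corrected level, TUBB3 made up 7.01% ± 0.687 of the 8 beta tubulins in MC-F7 and 6.08% ± 0.804 in MT-F7, and the libraries overlapped (two-sided exact permutation test, p = 0.3). TUBB2B made up 5.09% ± 0.716 and 9.32% ± 2.70.

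The stathmins differed in direction. STMN1, the stathmin of dividing cells and neural progenitors, rose from 355 ± 85.2 to 669 ± 104 CPM (log2 fold change 0.91, edgeR adjusted p = 0.0054), beside the rise of STMN2. STMN3, a neuronal stathmin, fell from 21.6 ± 1.30 to 13.4 ± 0.827 CPM (log2 fold change -0.69, edgeR adjusted p = 0.0072), and STMN4 did not pass (0.05, with a value below 0 in 3 of the 6 fits that left out a library). By length-corrected level, STMN2 made up 44.8% ± 1.31 of the 4 stathmins in MC-F7 and 45.1% ± 2.27 in MT-F7, with overlap (two-sided exact permutation test, p = 0.9).

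Among microtubule-associated proteins, MAP4, a relative of MAP2 and MAPT found in most cells, rose from 8.93 ± 2.91 to 16.7 ± 2.17 CPM (log2 fold change 0.90, edgeR adjusted p = 0.013), a call lost without replicate 1 of MT-F7 (0.79) and in limma on log2(TPM + 0.1) and on log2 of the rescaled TPM + 1 (adjusted p = 0.0643 and 0.0646). The log2 fold change of MAP2 was 2.13. By length-corrected level, its share of the 3 relatives MAP2, MAPT and MAP4 was 37.9%, 35.7% and 36.1% in the MC-F7 libraries against 56.9%, 66.5% and 58.7% in MT-F7 (two-sided exact permutation test, p = 0.1, the smallest possible). The share of MAPT went from 14.2% ± 7.46 to 3.61% ± 1.26.

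Relatives of DCX also differed in direction. DCLK3 gave 104, 91 and 102 counts in the MC-F7 libraries against 10, 6 and 15 in MT-F7, a log2 fold change of -3.37 (SE 0.375, edgeR adjusted p = 4.3e-05). It passed the filter on low counts only through the MC-F7 libraries, where it was higher, so its test is given as a description. DCLK2 rose from 4.53 ± 1.31 to 10.2 ± 2.29 CPM (log2 fold change 1.17, edgeR adjusted p = 0.0051). DCLK1, which like DCX binds microtubules in young neurons, rose from 0.589 ± 0.108 to 1.69 ± 0.478 CPM (log2 fold change 1.52, edgeR adjusted p = 0.016), a call lost without replicate 2 of MC-F7 (1.51) or replicate 2 of MT-F7 (1.27). By length-corrected level, DCLK3 held 44.4% ± 5.80 of the 4 genes DCX, DCLK1, DCLK2 and DCLK3 in MC-F7 and 2.96% ± 1.02 in MT-F7. DCX reached 2.09% ± 0.413 in MT-F7 and was at 0 in MC-F7.

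ELAVL1 (HuR), the member of the ELAVL family found in most cells, outnumbered its neuronal relatives in both groups. It made up 95.5% ± 1.55 of the 4 ELAVL genes in MC-F7 and 98.8% ± 0.50 in MT-F7, and its own log2 fold change was 0.08 (edgeR adjusted p = 0.81). ELAVL3 went from 4.25% ± 1.49 to 0.837% ± 0.429 of the family, without overlap (two-sided exact permutation test, p = 0.1, the smallest possible). The share of ELAVL4 was 0.118% ± 0.0717 and 0.303% ± 0.117, with overlap (p = 0.2 in the same exact test). ELAVL2 gave 6, 8 and 4 counts in the MC-F7 libraries against 2, 6 and 0 in MT-F7. NCAM2, the relative of NCAM1, gave 2 counts in 1 MT-F7 library and 0 in the others, and neither was tested.

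**Figure D3:**
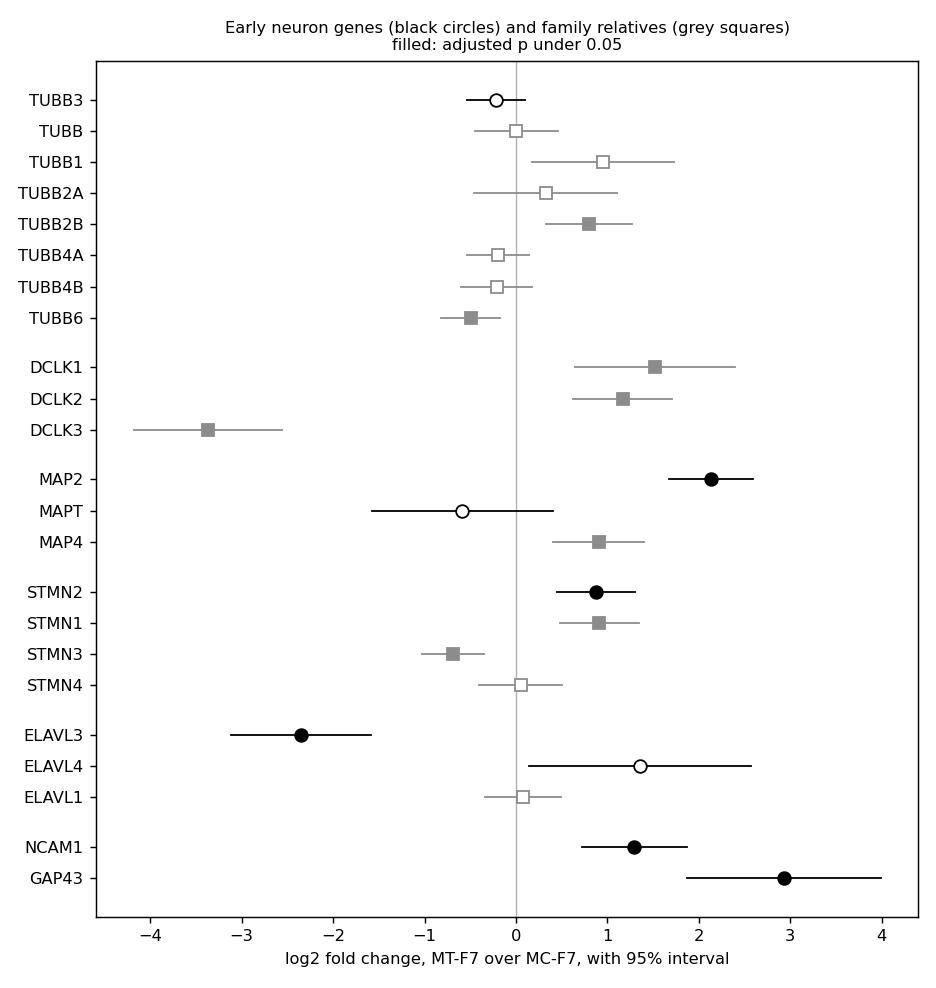
Log2 fold change of MT-F7 against MC-F7 (horizontal axis, with its 95% interval) for the tested early neuron genes and their relatives, grouped by family. The tested early neuron genes run from -2.35 for ELAVL3 to 2.93 for GAP43, and the largest change among the relatives is that of DCLK3 at -3.37. DCLK3 passed the filter on low counts only through MC-F7, and GAP43 and ELAVL4 only through MT-F7.

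**Figure D4:**
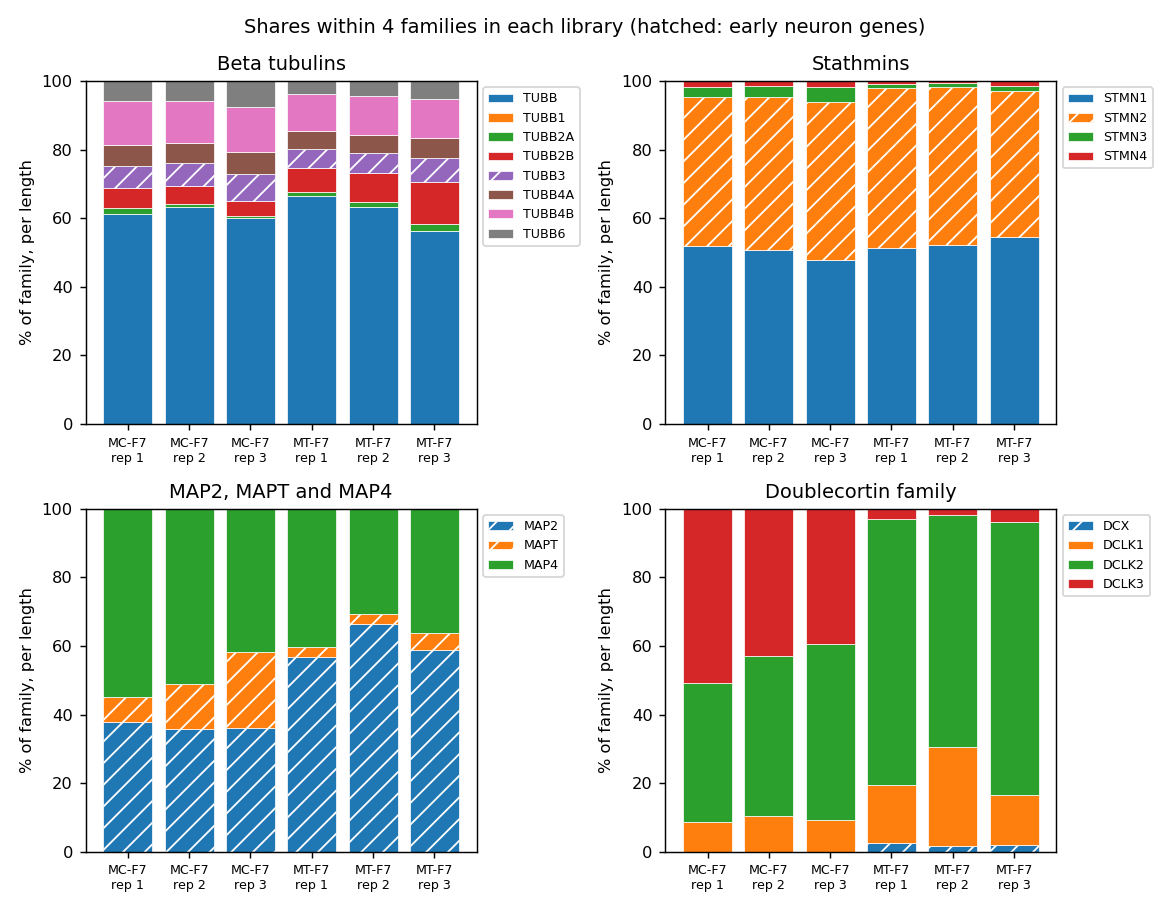
Share of each gene in its family in the 6 libraries, in percent of the summed length-corrected level (vertical axis). The share of TUBB3 among beta tubulins and of STMN2 among stathmins overlaps between the groups, whereas MAP2 takes 56.9% or more of its family in every MT-F7 library and at most 37.9% in every MC-F7 library.

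Other genes of the neuronal cytoskeleton and of early neurons were taken by list. Of the 217 different genes on the lists outside the 9 genes, relatives and markers of other cell types included, 150 were tested, 34 rose and 26 fell. Of the 5 neuronal intermediate filaments tested, 4 rose and 1 did not pass, with a median log2 fold change of 0.77. NEFL, the light neurofilament chain, rose from 6.59 ± 0.841 to 13.8 ± 3.45 CPM (log2 fold change 1.07, edgeR adjusted p = 0.0040). NEFM, the medium chain, rose from 34.1 ± 1.51 to 66.8 ± 7.96 CPM (0.97, adjusted p = 6.0e-04). INA rose by 0.77 (adjusted p = 0.022), a call lost without replicate 2 (0.79) or 3 (0.60) of MC-F7 or replicate 1 (0.72) or 2 (0.67) of MT-F7, and in limma on the TPM values (adjusted p = 0.0745 to 0.0834). PRPH rose and NEFH, the heavy chain, did not pass, with log2 fold changes of 0.59 and -0.31, although every MT-F7 library lay below the MC-F7 libraries for NEFH. These last were added to complete the family after their values had been seen.

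Of 7 tested alpha tubulins, the partners of beta tubulin, none rose and 2 fell, with a median of -0.05. TUBA1C fell from 458 ± 70.7 to 117 ± 41.1 CPM (log2 fold change -1.98, edgeR adjusted p = 8.1e-05) and TUBA4A from 138 ± 28.9 to 44.7 ± 9.71 CPM (-1.62, adjusted p = 1.0e-04). Of 23 tested motors and other microtubule proteins, 7 rose and 5 fell, with a median of 0.17. MAP1A, a microtubule-binding protein of mature neurons, rose from 24.5 ± 2.52 to 92.1 ± 14.1 CPM (1.91, adjusted p = 6.4e-06), beside 2.13 for MAP2. KIF5A, a motor of axonal transport, fell from 15.0 ± 0.295 to 4.11 ± 0.644 CPM (-1.87, adjusted p = 2.3e-05). NAV2, which takes part in neurite outgrowth, fell from 187 ± 3.51 to 47.1 ± 4.07 CPM (-1.99, adjusted p = 1.9e-06).

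Other genes of the growth cone showed no common direction. Of 14 tested, 1 rose and 4 fell, with a median of 0.00. CNTN2, an axonal adhesion molecule, rose (log2 fold change 1.27, edgeR adjusted p = 0.0062). NRN1 (neuritin) fell by 2.20 on the log2 scale (adjusted p = 5.3e-05). PLPPR5 fell by 0.89 (adjusted p = 0.035), a call lost without replicate 1 (-0.87) or 2 (-0.81) of MC-F7 or replicate 1 (-0.83) or 3 (-0.69) of MT-F7, and in limma on the TPM values (adjusted p = 0.119 to 0.145). Of 11 tested RNA-binding genes of neurons, 1 rose and 2 fell, with a median of -0.28. RBFOX2, a splicing factor found in neurons and many other cells, rose by 0.83 (adjusted p = 0.0029). CELF4 fell by 1.55 (adjusted p = 0.0033), beside ELAVL3. CELF6 fell by 0.70 (adjusted p = 0.017), a call lost without replicate 1 (-0.63) or 2 (-0.62) of MC-F7 or replicate 1 of MT-F7 (-0.70), and in limma on the TPM values (adjusted p = 0.118 to 0.159).

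Transcription factors that start neuron formation were mostly too low to test. Of 30 in the list, 22 were not tested, 4 of them without a count in any library, and of the 8 tested none rose and 1 fell. The one that fell was SOX11, which acts in neural progenitors and young neurons, from 113 ± 8.24 to 72.8 ± 3.94 CPM (log2 fold change -0.63, edgeR adjusted p = 0.0064). NEUROG2, a proneural factor looked at after its values had been seen, gave 0, 11 and 5 counts in the MC-F7 libraries against 0 in every MT-F7 library. The groups overlap, since 1 MC-F7 library also had no count. POU4F1, likewise not tested, differed in the other direction, with 0, 5 and 10 counts in MC-F7 against 13, 7 and 9 in MT-F7, also with overlap. Genes of synapses and mature neurons showed no common direction. Of 17 tested, 2 rose and 2 fell, with a median of 0.08. SYT4, a protein of secretory vesicles, rose by 1.06 (adjusted p = 0.0042), while CAMK2B, a synaptic kinase, fell by 1.39 (adjusted p = 0.0081). The synaptic gene SNAP25, also looked at afterwards, was at 23.7 ± 3.61 and 25.1 ± 3.47 CPM and did not pass. Of 11 tested cofactors of REST, a repressor of neuronal genes, CTDSP1 rose by 1.10 (adjusted p = 0.0010) and the other 10 did not pass. REST itself was not found by its symbol in the count table.

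**Figure D5:**
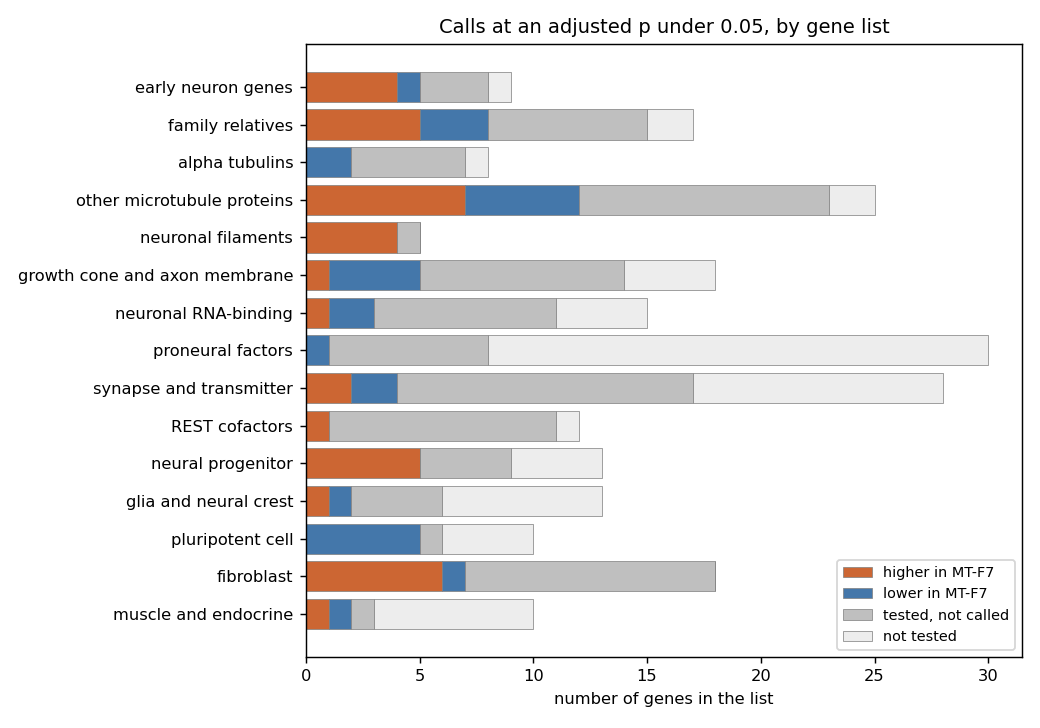
Number of genes higher, lower, not called and not tested in MT-F7 (horizontal axis, stacked bars) for the 9 early neuron genes, their relatives and the other lists. Neurofilament genes have 4 of 5 higher, the growth cone list has 1 higher and 4 lower, and most proneural transcription factors were not tested.

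Markers of other cell types also differed between these libraries. Of 13 listed genes of neural progenitors, 10 were found in the count table, and SOX1, SOX2 and SOX3 were not. Of 9 tested, 5 rose and none fell, with a median log2 fold change of 0.84. The summed level of the genes found was 687 to 798 CPM in MC-F7 and 1438 to 1497 CPM in MT-F7. LHX2, a transcription factor of the early forebrain and eye, rose from 34.6 ± 3.15 to 324 ± 52.2 CPM (log2 fold change 3.23, edgeR adjusted p = 5.7e-07). PAX6, a regulator of neural progenitors, rose from 2.63 ± 0.259 to 19.9 ± 0.591 CPM (2.92, adjusted p = 7.7e-07). CDH2 (N-cadherin) rose from 107 ± 23.5 to 302 ± 44.9 CPM (2.83-fold, adjusted p = 1.4e-04). Glial genes gave 1 higher and 1 lower of 6 tested, at summed levels of 18.1 to 19.7 CPM in MC-F7 and 16.2 to 24.4 CPM in MT-F7. Genes of muscle and endocrine cells, which share some neuronal genes, gave 1 higher and 1 lower of 3 tested, at summed levels of 119 to 144 and 134 to 181 CPM. Most of these sums came from CHGA, which is also on the synapse list and did not pass, at 112 and 125 CPM on average.

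The stem cell label was checked with pluripotency genes. Of the 10 in this list 7 were found in the count table, and SOX2, LIN28B and TDGF1 were not. Of 6 tested, each with counts in every library, 5 fell in MT-F7 and 1 did not pass. The least abundant of those that fell passed the filter on low counts only through the MC-F7 libraries, where it was higher. The summed level of the list was 1345 to 2014 CPM in MC-F7 and 738 to 854 CPM in MT-F7. The 3 most abundant were POU5F1, with a log2 fold change of -1.19 (edgeR adjusted p = 0.0012, and 0.0529 in limma on log2(TPM + 1)), DNMT3B with -1.20 (adjusted p = 2.5e-04), and SALL4, which did not pass (0.33, adjusted p = 0.29). Of 18 tested fibroblast genes, 6 rose, 1 fell and 11 did not pass. Their summed level was 467 to 610 CPM in MC-F7 and 1050 to 1313 CPM in MT-F7. Abundant genes weigh most in this sum, and the mean of ACTA2 went from 85.3 to 309 CPM and that of FBLN1 from 108 to 327 CPM. The gene that fell passed the filter on low counts only through the MC-F7 libraries. FBLN1, a matrix protein, rose by 1.60 on the log2 scale (adjusted p = 4.5e-05) and ACTA2, smooth muscle actin, by 1.86 (adjusted p = 3.5e-05), while COL1A1, the main fibrillar collagen, did not pass (0.39, adjusted p = 0.094). None of the 18 fibroblast genes was at 0 in all libraries. The part of neural progenitor, pluripotency and fibroblast genes in the changes of MAP2, STMN2, NCAM1, GAP43 and ELAVL3 was not tested.

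For each tested early neuron gene, the genes with the most similar pattern over the 6 libraries were found by the root mean square difference of their log2 CPM, centred on each gene's mean, among tested genes with at least 1 CPM on average. MAP2 was closest to DMD (0.0763) and GPSM2 (0.106), STMN2 to BCAT1 (0.0423) and LRRC49 (0.056), NCAM1 to SYT4 (0.157) and JSRP1 (0.162), and GAP43 to SEMA3E (0.288) and FGF8 (0.362). ELAVL3 was closest to SH2D4B (0.201) and SCNN1A (0.227), and ELAVL4 to KDM1B (0.203) and MYO16 (0.208). TUBB3 was closest to ENOPH1 (0.0277) and WBP2 (0.0376), and MAPT to RYR2 (0.0506) and SHANK2 (0.0756). DCX was not tested and ELAVL4 had a mean of 0.549 CPM, so neither could be listed as a closest gene. None of the other early neuron genes was among the closest of another. The nearest pair within the tested early neuron genes was STMN2 and NCAM1 (0.392).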

How the data were processed

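RNA-seq was done on F7 cells from both kinds of feeder layer, MC-F7 and MT-F7, with 3 libraries each. The authors aligned paired-end reads with HISAT2 2.0.5 to the Bos taurus genome of Ensembl and counted reads per gene with featureCounts 1.5.0-p3. The deposited count table holds raw counts by Entrez gene. The genome build and the strand setting are not given in the sources used here. The authors also deposited values that they call TPM, which for each of the 9 genes were a constant multiple of the counts over the 6 libraries, so library size is still in them. They were rescaled to 1000000 per library for comparisons between genes. Entrez IDs were given symbols from the RefSeq gene table of ARS-UCD2.0 (19074 of 19163 matched), and 21357 of 21653 lines of the TPM table were used. The table of 1M and MT columns held 0 columns of other samples.

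Counts were filtered with filterByExpr (minimum count 10, minimum total count 15), normalized by TMM and tested in edgeR 4.0.16 under R 4.3.3 with the quasi-likelihood test, two-sided and without a block, with Benjamini-Hochberg adjustment over 13001 genes. CPM values use the TMM library sizes. Alternatives were DESeq2 1.42.0, other scaling factors and filters, a replicate block, limma 3.58.1 on log2(TPM + 1), log2(TPM + 0.1) and the rescaled TPM + 1, a minimum absolute log2 fold change of 1, and each library left out. Chosen after seeing the data were the removal of replicate 3 of both groups and the alternatives for family shares. Fits with edgeR, DESeq2 and limma were tried on simulated counts. The family shares, ratios, ranks, pattern distances and permutation tests were not. Patterns were compared on log2(CPM + 0.1). Python 3.11.15 with pandas 2.3.3 and scipy 1.17.1 was used for tables.

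The 9 genes and all lists were chosen with earlier results of these data known. Named are all 9 genes and their relatives, and from each other list up to 3 called genes that changed most on the log2 scale and had a mean of at least 1 CPM, together with REST. Of the genes that this rule selects, 1 is not reported here. From the pluripotency and fibroblast lists the 3 genes with the highest mean CPM were named, and for each tested gene the 2 genes with the most similar pattern. For glial, muscle and endocrine genes only counts and summed levels are given, apart from CHGA. No sequences are shown, since none were used here.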

Additional observations from a re-analysis of the deposited data

How the results depend on the processing

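The number of early neuron genes called was between 4 and 6 over 18 alternatives, with 3 to 5 higher and 1 lower. The fifth higher gene was DCX, in the settings that kept it in the test, and with at least 10 counts in every library GAP43 and ELAVL4 were not tested. Of all tested genes, 1489 were called with an absolute log2 fold change over 1 (797 higher, 692 lower), and among genes of the lists 35 (18 higher, 17 lower). The lower calls of all tested genes were 818 in limma on log2(TPM + 1), 842 on log2(TPM + 0.1) and 959 on rescaled values. Leaving out 1 library gave 1914 to 3093 calls, 1019 to 1592 higher and 895 to 1567 lower, with the lowest numbers without replicate 2 of MC-F7, and it moved 0 to 2 places in the order of levels. Without replicate 3 of both groups there were 4242 calls (2195 higher, 2047 lower).

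Libraries with the same number were not treated as pairs, since their deviations correlated at 0.167, 0.0707 and 0.505. A fit with the replicate number as a block called 4674 genes (2373 higher, 2301 lower) and 5 early neuron genes, and not every library was closest to its own number. With the block COL1A1 also passed (0.40, edgeR adjusted p = 0.0201). The call of CAMK2B was lost without replicate 3 of both groups (-1.02, adjusted p = 0.0516).

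Values near 0 changed sign. TUBB was at -0.0023 with the block and between -0.143 and 0.166 without 1 library. Over the same fits TUBB2A was between -0.0593 and 0.893, STMN4 between -0.0664 and 0.209, ELAVL1 between -0.0581 and 0.232, and the share of STMN2 among stathmins differed by -0.479 to 1.62 percentage points. Without replicate 3 of both groups TUBB2A was at -0.126 and STMN4 at -0.153. The cause of these changes was not tested. MAPT, ELAVL4 and DCX had at most 36, 26 and 6 counts in any library, and the part of depth in their results was not tested.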
